A study of Mus musculus with 8 samples.

Results

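The genes described here are 10 that liver endothelial cells use to signal to their neighbours or to receive signals. They are the ligand genes Wnt2, Wnt9b, Rspo3, Bmp2, Hgf and Angpt2, the receptor genes Kdr and Flt4, and the transcription factor genes Gata4 and Maf. Members were chosen by name: every non-control probe whose gene name or RefSeq accession maps to one of these symbols was taken, which gave 23 probes for the 10 genes, of 149782 probes and 21232 gene symbols in all. All 10 genes had a probe bright enough to be tested, and 20 of the 23 probes were tested. RNA came from livers of male mice, 4 labelled oxaliplatin and 4 labelled control, with 1 one-colour (Cy3) Agilent microarray per mouse. Oxaliplatin is a platinum drug, injected here into the peritoneal cavity every week over 6 weeks. The series calls these mice its HSOS model, for hepatic sinusoidal obstruction syndrome, in which the smallest liver vessels are damaged. The control mice are labelled normal mice. Strain, age, dose and vehicle are not given in the sources used here.

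The sinusoids of the liver are lined by a specialised endothelium with pores and no continuous basement membrane, and the transcription factors GATA4 and c-MAF are known as regulators of its identity. These cells, and the endothelium of the central vein, release signals that act on hepatocytes, which is called angiocrine signalling. WNT2, WNT9B and R-spondin 3 (from Rspo3) keep the hepatocytes around the central vein in their pericentral gene programme. BMP2 and BMP6 induce the iron hormone hepcidin in hepatocytes. Hepatocyte growth factor (HGF), made mainly by stellate and endothelial cells, acts through the receptor MET. KDR and FLT4 are receptors for vascular endothelial growth factors (VEGFs), and angiopoietin 2 (from Angpt2) binds the endothelial receptor TEK. The question was which of these genes differed between the 2 groups, and whether their partners in the same pathways differed too.

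Values are log2 processed signals relative to the 75th percentile of each array's non-control probes, and a difference is the oxaliplatin mean minus the control mean on this log2 scale. Each gene is represented by its brightest probe, and a change was called at an adjusted p under 0.05 (limma, Benjamini-Hochberg over all genes tested). Over all genes tested, 2586 of 13896 genes were called (18.6%), 972 higher (6.99%) and 1614 lower (11.6%) in oxaliplatin livers, and the median difference of all genes was -0.09. An unadjusted p under 0.05 (limma) was reached by 5006 of the 13896. Between 27.2% and 38.7% of probes were well above background on the oxaliplatin arrays, and between 36.1% and 40.9% on the control arrays (two-sided exact permutation p = 0.229, n = 4 each). The lowest of these shares was on the array of oxaliplatin replicate 2. The 78319 probes above background on no array had a median difference of 0.60, and 93.1% of them read higher on the oxaliplatin arrays. The part of this in the differences of dim probes was not tested. All 4 arrays of a group lay on 1 slide of their own and were scanned together, so group, slide and scan cannot be told apart, and replicates 1 and 2 of the oxaliplatin group carry another run name than the other 6 arrays. Of 15 p53 target genes, which DNA damage is known to raise, 12 were lower and 0 higher in the livers labelled oxaliplatin, and 13 had an unadjusted p under 0.05. All directions given here follow the labels.

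Of the 10 angiocrine genes, 1 was called lower (Wnt9b) and 1 higher (Maf) in oxaliplatin livers, and 8 did not pass the test. The called share of the whole table, 18.6%, is close to this 2 of 10. The median difference of the 10 was -0.03, beside -0.09 over all genes tested. The groups did not overlap for Wnt9b and Maf, and they overlapped for the other 8. Of all genes tested, 27.7% had groups that did not overlap. At the level of single probes, 2 of the 20 tested were called, 1 in each direction, beside 18.4% of all probes tested (7.42% higher and 11% lower).

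**Figure D1:**
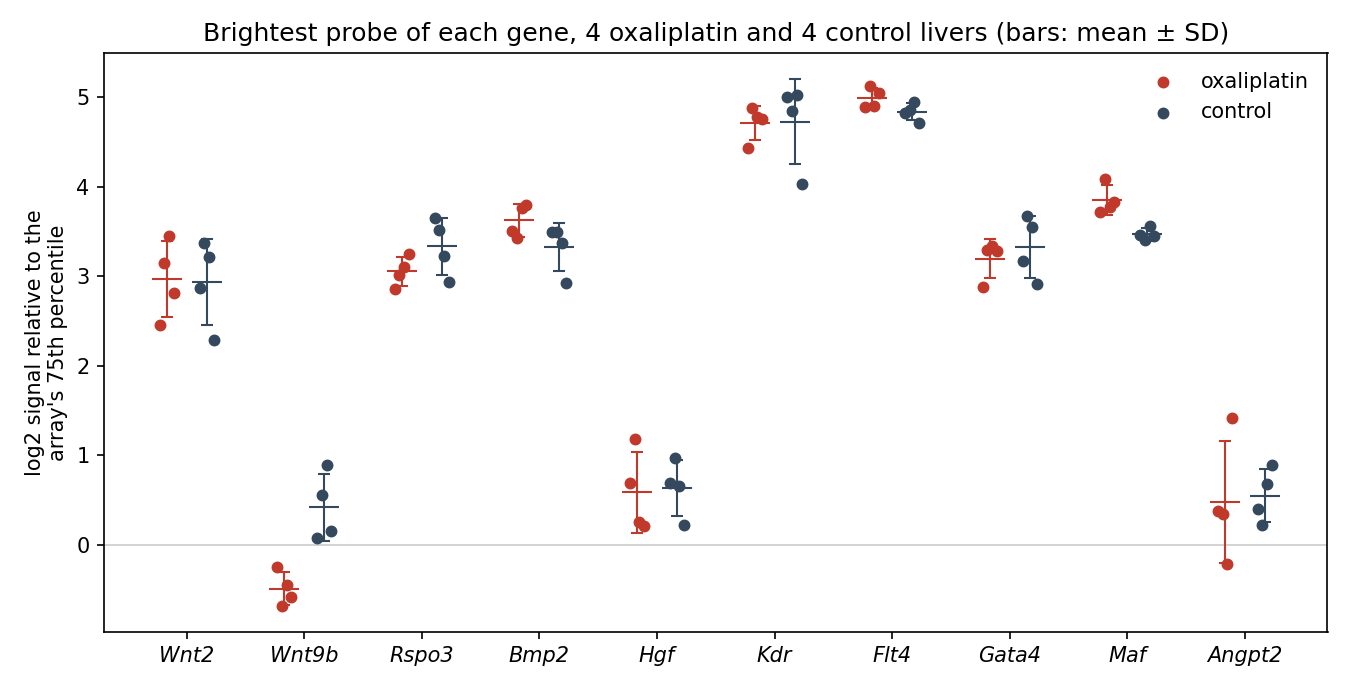
Level of each of the 10 genes on every array (vertical axis: log2 signal of the gene's brightest probe relative to the array's 75th percentile), with oxaliplatin livers in red on the left of each pair and control livers in blue on the right. Long horizontal bars are group means and whiskers are SDs over 4 arrays. Levels of different genes come from different probes and cannot be compared. Wnt9b lies between -0.68 and -0.25 in oxaliplatin livers and between 0.07 and 0.89 in control livers, and Maf between 3.71 and 4.09 in oxaliplatin livers and between 3.40 and 3.56 in control livers. The groups overlap for the other genes.

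Wnt9b was the member with the largest difference among the brightest probes. Its level was -0.25, -0.68, -0.46 and -0.58 in oxaliplatin livers 1 to 4, against 0.07, 0.55, 0.89 and 0.15 in control livers 1 to 4. Every oxaliplatin liver lay below every control liver. The difference was -0.91 ± 0.19 (SE, n = 4 each; adjusted p = 0.0183, 95% interval -1.35 to -0.47), which is a level 1.88-fold lower in oxaliplatin livers. The probe was well above background on 3 of 4 oxaliplatin arrays and on 4 of 4 control arrays. In whole liver, fewer cells of a type and less RNA per cell cannot be told apart.

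Wnt9b has 2 probes on the array, with different sequences, and their first 30 bases are shown because this gene carries the fall.
Wnt9b catalogue probe: tgtctttctagccaaagcttcctctctcaa
Wnt9b custom probe: tctaagtttctctttgaaaatcagttcact
The catalogue probe is the brighter one and gave the values above. Its 60 bases lie at chr11:103588882-103588941 on the minus strand of build mm9, from base 4254 of the transcript, per the file headers and annotation columns. The custom probe read -3.30, -2.64, -3.02 and -3.60 in oxaliplatin livers and -1.58, -1.55, -0.73 and -1.58 in control livers. It was well above background on 0 of 4 oxaliplatin arrays and on 3 of 4 control arrays, so it did not enter the test. Its oxaliplatin values are only an upper bound, and no fold is given.

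The size of the Wnt9b difference depended on the background correction, since with normexp it was -0.47 (adjusted p = 0.0187). The call was lost when either of 2 single arrays was left out, oxaliplatin replicate 3 (-0.92, adjusted p = 0.0509) or oxaliplatin replicate 4 (-0.88, adjusted p = 0.0507). On the 6 arrays that share a run name, the difference was -0.93 (adjusted p = 0.0912). Adding the run name to the model of all 8 arrays gave -0.93 as well (adjusted p = 0.0711).

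Wnt2, the other angiocrine Wnt ligand, did not pass the test. Its level was 2.46, 3.15, 3.45 and 2.82 in oxaliplatin livers, against 2.87, 3.37, 3.21 and 2.28 in control livers. Both groups ran over about the same range, and replicate 1 was the lowest oxaliplatin liver and replicate 4 the lowest control liver. The difference was 0.04 ± 0.28 (SE, n = 4 each; adjusted p = 0.939, 95% interval -0.61 to 0.68). A dimmer custom probe, above background on 2 oxaliplatin and 3 control arrays, differed by 0.08 ± 0.20 (SE; adjusted p = 0.796).

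Rspo3, whose product R-spondin 3 amplifies Wnt signals at the cell surface, read 2.86, 3.01, 3.11 and 3.25 in oxaliplatin livers, against 3.66, 3.52, 3.23 and 2.94 in control livers. The 2 highest values were in control livers, and the rest of both groups overlapped. The difference was -0.28 ± 0.17 (SE, n = 4 each; adjusted p = 0.268, 95% interval -0.67 to 0.11). A second probe differed by 0.12 ± 0.52 (SE; adjusted p = 0.895) and was above background on 2 arrays of each group. Both are shown because their differences have opposite signs.
Rspo3 custom probe, first 30 bases: tgagtgttttctttctgaaatgaggggaaa
Rspo3 catalogue probe, all 60 bases: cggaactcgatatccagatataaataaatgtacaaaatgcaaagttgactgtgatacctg
The catalogue probe starts at base 793 of the transcript. Its 60 bases are placed over chr10:29224509-29226228 (mm9, minus strand), an interval of 1720 bases.

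The other genes of the Wnt pathway were mostly without a call, as were most genes of the whole table, where 18.6% were called. Of 30 tested receptors, R-spondin receptors and Wnt inhibitors, 2 were higher, 1 was lower and 27 did not pass, with a median difference of 0.06. The 2 that rose were Fzd10 (0.81 ± 0.10, SE; adjusted p = 0.0035) and Fzd2 (0.72 ± 0.15, SE; adjusted p = 0.0172), both Wnt receptor genes of the Frizzled family. Fzd2 was dim, with means of 0.55 in oxaliplatin and -0.17 in control livers. Over the 21 alternatives the Fzd2 difference was at least 0.30 and its adjusted p at most 0.113. Fzd8, of the same family, was called lower at -0.85 ± 0.21 (SE; adjusted p = 0.0286) on its brightest probe. Its other probe differed by 0.25 (adjusted p = 0.7), and the call held in 2 of the 8 fits that leave out 1 array.

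The receptor and inhibitor genes fixed as textbook counterparts of the Wnt members did not pass on their brightest probes. The receptor genes Fzd4, Lrp5 and Lrp6 differed by -0.16, 0.26 and 0.0042, and a second Fzd4 probe by 0.60 (adjusted p = 0.0607). For the R-spondin receptor genes Lgr4 and Lgr5 the differences were -0.04 and -0.07. Znrf3 and Rnf43, whose products remove Wnt receptors from the surface, differed by -0.17 and 0.09, and a second Rnf43 probe by 0.40 (adjusted p = 0.0462). Other probes of Lrp6 (0.32), Znrf3 (-0.32) and Lgr4 (0.07, 0.15 and 0.46) did not pass. Of 9 tested Wnt ligand genes, 1 was higher, Wnt1 (0.67 ± 0.16, SE; adjusted p = 0.025), and 1 was lower, Wnt9b. This is near the 18.6% called over all genes tested. The Wnt1 call held in 4 of the 8 fits that leave out 1 array. Wnt1 means were 1.22 in oxaliplatin and 0.55 in control livers. Over the 21 alternatives the Wnt1 difference was at least 0.37 and its adjusted p at most 0.162.

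Pericentral genes of hepatocytes, which depend on Wnt signals, were described by 20 tested members of a list, of which 1 was higher, 1 was lower and 18 did not pass (median difference 0.09). The called share of all genes tested was 18.6%. Cyp2e1, a cytochrome of drug and alcohol metabolism, read 10.72, 10.70, 10.72 and 10.74 in oxaliplatin livers, against 10.30, 10.29, 10.40 and 10.17 in control livers. The groups did not overlap, and the rise was 0.43 ± 0.09 (SE, n = 4 each; adjusted p = 0.015). It missed the threshold without oxaliplatin replicate 3 (adjusted p = 0.0502), and under quantile normalization the difference was 0.21 (adjusted p = 0.0916). Its second probe differed by 0.32 (adjusted p = 0.0738). Glul, the pericentral glutamine synthetase gene, differed by 0.15 ± 0.10 (SE; adjusted p = 0.317), and by 0.22 and -0.05 on its other probes. Axin2, a general Wnt target gene, differed by -0.01 ± 0.31 (SE; adjusted p = 0.98), and a second Axin2 probe by 1.06 (adjusted p = 0.0754). The listed gene that fell was Tcf7, a transcription factor gene of the pathway, at -0.83 ± 0.14 (SE; adjusted p = 0.00948), while its other probes differed by -0.21 and 0.64 and did not pass. The called Tcf7 probe was dim, with means of -0.27 in oxaliplatin and 0.56 in control livers. It was above background on 3 of 4 oxaliplatin and 4 of 4 control arrays.

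Bmp2 did not pass the test, and its 2 probes pointed in opposite directions. On the brightest its level was 3.50, 3.43, 3.77 and 3.80 in oxaliplatin livers, against 3.50, 3.49, 3.37 and 2.93 in control livers. Oxaliplatin replicates 1, 3 and 4 lay above every control liver, replicate 1 only just, and replicate 2 lay within the control range. The difference was 0.30 ± 0.16 (SE, n = 4 each; adjusted p = 0.201, 95% interval -0.06 to 0.66). The second probe read 1.43, 1.55, 1.64 and 1.75 in oxaliplatin livers, against 1.85, 1.88, 1.92 and 1.35 in control livers, a difference of -0.16 ± 0.15 (SE; adjusted p = 0.489). The 2 Bmp2 probes, shown by their first 30 bases because their differences disagree in sign, have different sequences.
Bmp2 custom probe: tttctacatttgcctgacacgcagcaaaat
Bmp2 catalogue probe: aagagacatgtgaggattagcaggtctttg
The catalogue probe lies at chr2:133386981-133387040 (mm9, plus strand).

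Some partners of Bmp2 were called lower in oxaliplatin livers, in about the share found over all genes tested. Of 34 tested genes for BMP ligands, receptors, SMAD proteins and the hepcidin arm, 4 were called lower, 0 higher and 30 did not pass. Of all genes tested, 11.6% were called lower and 6.99% higher. In this list 12 of 34 had an unadjusted p under 0.05 (limma), beside 5006 of 13896 over all genes tested. The median of this list was -0.26, beside -0.09 over all genes tested. Id1, a gene that BMP signals induce, read 3.18, 3.21, 3.86 and 3.82 in oxaliplatin livers, against 5.58, 5.81, 6.19 and 4.40 in control livers. Every oxaliplatin liver lay below every control liver, although control replicate 4 was more than 1 log2 unit below the other controls. The difference was -1.97 ± 0.37 (SE, n = 4 each; adjusted p = 0.0128), and both other Id1 probes were called too, at -1.91 and -2.0.

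Bmp6, the ligand that acts with BMP2 on hepcidin, fell by 0.94 ± 0.19 on the log2 scale (SE; adjusted p = 0.0151), with 0.62, 0.92, 1.16 and 1.12 in oxaliplatin livers and 1.86, 2.05, 2.21 and 1.46 in control livers. Its second probe was also called, at -0.89. Atoh8, a transcription factor gene induced by BMP signals, differed by -0.89 ± 0.18 (SE; adjusted p = 0.0146), and its second probe was called at -0.78. Smad1, a signal transducer gene of the pathway, differed by -0.63 ± 0.16 (SE; adjusted p = 0.0286), and both its other probes were called at -0.89 and -0.74. The calls of Id1, Bmp6 and Atoh8 held in all 8 fits that leave out 1 array, and that of Smad1 in 3 of 8. On the 6 arrays of 1 run name none of the 4 passed, with differences of -1.65 for Id1, -0.76 for Bmp6, -0.73 for Atoh8 and -0.67 for Smad1.

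Other counterparts of Bmp2 did not pass. Hamp, the hepcidin gene, differed by -0.38 ± 0.13 (SE; adjusted p = 0.0792), and by -0.57 (adjusted p = 0.0201) under quantile normalization. Its second probe differed by -0.27 and did not pass. For the receptor genes Acvr1 and Bmpr1a the differences were -0.32 ± 0.10 (SE; adjusted p = 0.0505) and -0.20 ± 0.10 (SE; adjusted p = 0.207), and the other Bmpr1a probes differed by 0.88 (adjusted p = 0.108) and -0.27 and the other Acvr1 probe by -0.02. Smad6 and Smad7, genes for inhibitors that BMP and related signals induce, differed by -0.30 and -0.90 without passing (-0.63 and -0.74 on their second probes), and Smad7 passed at -1.36 (adjusted p = 0.00889) when control replicate 4 was left out.

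Hgf did not pass on any of its 3 tested probes. On the brightest it read 0.69, 1.18, 0.26 and 0.21 in oxaliplatin livers, against 0.69, 0.97, 0.65 and 0.22 in control livers, a difference of -0.05 ± 0.24 (SE, n = 4 each; adjusted p = 0.907, 95% interval -0.61 to 0.51). The groups covered the same range. The custom probe, which the files assign to another transcript of the gene, read 0.15, -0.16, 0.01 and -0.12 in oxaliplatin livers, against 0.24, 0.45, 0.38 and 0.11 in control livers, a difference of -0.32 ± 0.12 (SE; adjusted p = 0.0971). Only oxaliplatin replicate 1 reached into the control range on that probe. The third probe differed by 0.30 ± 0.31 (SE; adjusted p = 0.508), and its 2 highest values, -0.21 and 0.31, were those of oxaliplatin replicates 1 and 2, the arrays of the other run name. These 3 probes are shown because they gave 2 signs for 1 gene.
Hgf brightest catalogue probe, first 30 bases: agtgtgtttgaagcatccatggatacatga
Hgf custom probe, first 30 bases: cctagaacaactacttgagtgttgtgagtg
Hgf second catalogue probe, all 60 bases: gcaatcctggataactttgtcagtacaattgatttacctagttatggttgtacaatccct
The second catalogue probe lies at chr5:16121326-16121385 and the brightest at chr5:16124829-16124888 (mm9, plus strand), starting at bases 1947 and 2381 of the transcript.

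Of 18 tested genes for HGF activation and MET signalling, 1 was higher, 2 were lower and 15 did not pass (median difference -0.10). The 2 that fell were Spint2, an inhibitor gene of the proteases that activate HGF, at -0.44 ± 0.11 (SE; adjusted p = 0.0269), and Ptprj, a phosphatase gene, at -0.36 ± 0.10 (SE; adjusted p = 0.0434). Plg, the plasminogen gene, was called higher at 0.32 ± 0.08 (SE; adjusted p = 0.032). Their calls held in 3, 1 and 2 of the 8 fits that leave out 1 array. These calls among the 18 genes stand beside 18.6% called over all genes tested. The other Plg probes differed by -0.03 and 0.17 and the other Ptprj probes by 0.20 and -0.34, and none of these passed. Hgfac, the gene of the HGF activator protease, differed by -0.41 ± 0.14 (SE; adjusted p = 0.0767), and by -0.20 on its second probe.

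Met, the HGF receptor gene, differed by 0.25 ± 0.12 (SE; adjusted p = 0.158) on its brightest probe. Its level there was 6.46, 6.28, 6.37 and 6.44 in oxaliplatin livers, against 6.21, 6.31, 6.17 and 5.86 in control livers, and the groups overlapped by 1 liver each. Of its 3 other tested probes, 2 were called higher, at 0.84 (adjusted p = 0.00888) and 0.51 (adjusted p = 0.0305), and 1 differed by 0.09. With the mean of all kept probes the gene was called at 0.42 (adjusted p = 0.0355).

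**Figure D2:**
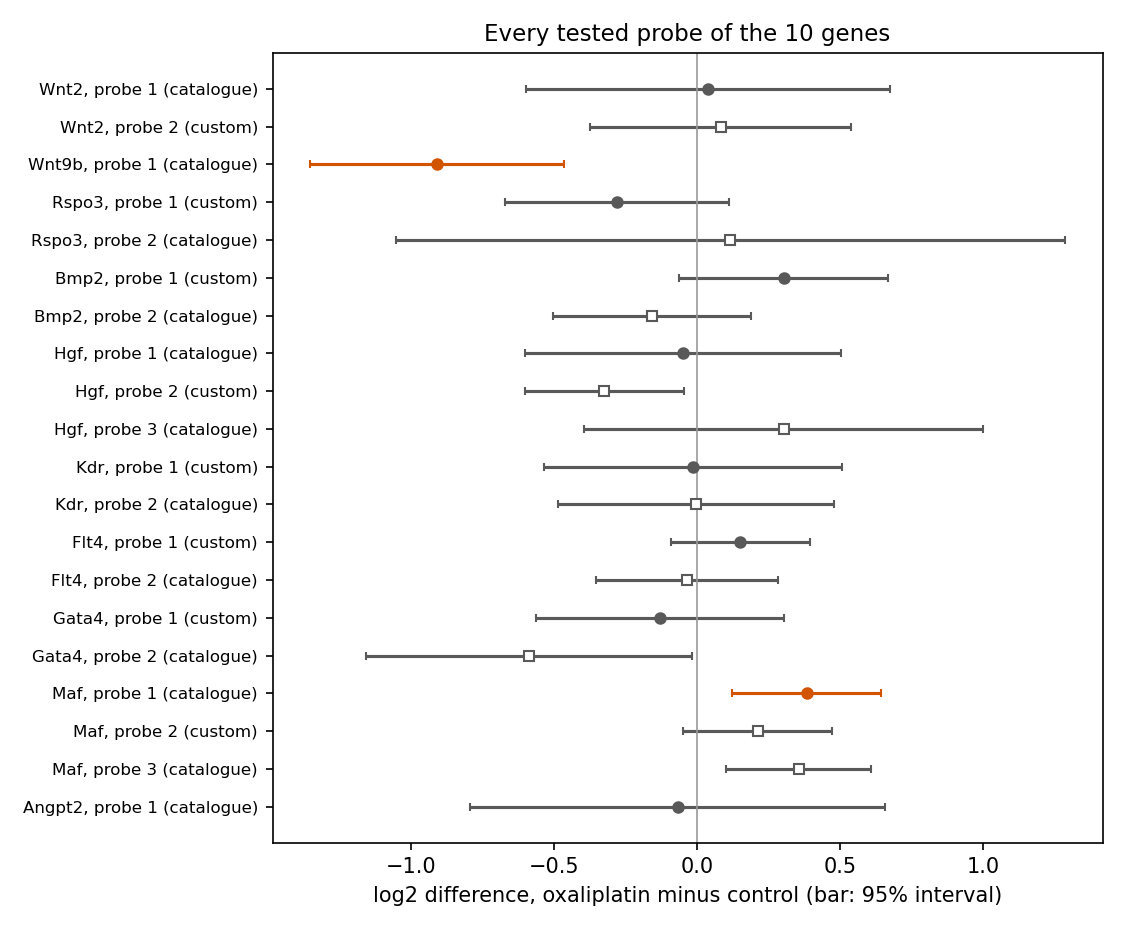
Difference of every tested probe of the 10 genes (horizontal axis: log2 difference, oxaliplatin minus control, with its 95% interval), 20 probes in all, with filled circles for each gene's brightest probe, open squares for the other probes, and orange for an adjusted p under 0.05. The brightest Wnt9b probe (-0.91) and the brightest Maf probe (0.38) are the 2 in orange, and the probes of Rspo3, Bmp2, Hgf and Flt4 lie on both sides of 0.

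Neither VEGF receptor gene passed the test. Kdr, the main VEGF receptor of endothelium (VEGFR2), read 4.44, 4.88, 4.78 and 4.76 in oxaliplatin livers, against 5.01, 4.85, 5.03 and 4.03 in control livers. Control replicate 4 was the lowest of all 8, and the other 3 controls and 3 oxaliplatin livers lay between 4.76 and 5.03. The difference was -0.01 ± 0.23 (SE, n = 4 each; adjusted p = 0.972, 95% interval -0.54 to 0.51). Kdr has a custom and a catalogue probe, and both carry the same 60 bases, of which the first 30 are shown because they make the gene its own repeat measurement.
Kdr, both probes: ctactgtatcctttagaattttaacctata
The catalogue copy is placed at chr5:76329309-76329368 (mm9, minus strand). Between the 2 copies the largest gap on any array was 0.079, against an SD over livers of 0.19 in the oxaliplatin group and 0.47 in the control group. Both copies are spots on the same array, so the gap does not include technical differences between arrays, and the SD does.

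Flt4, the receptor gene known as VEGFR3, read 4.89, 5.12, 4.91 and 5.04 in oxaliplatin livers, against 4.83, 4.86, 4.95 and 4.72 in control livers. Control replicate 3 lay inside the oxaliplatin range and the other 3 controls below it. The difference of 0.15 ± 0.10 (SE, n = 4 each; adjusted p = 0.296, 95% interval -0.07 to 0.38) did not pass, and a dimmer probe differed by -0.04 ± 0.14 (SE; adjusted p = 0.882). SDs of the brightest Flt4 probe were 0.11 in the oxaliplatin group and 0.10 in the control group.

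Of 12 tested VEGF ligand and receptor genes, 1 was higher, 1 was lower and 10 did not pass (median difference 0.06). Over all genes tested, 18.6% were called. Vegfa, the ligand gene for KDR, read 6.05, 6.41, 6.50 and 6.50 in oxaliplatin livers, against 6.89, 6.94, 7.11 and 6.65 in control livers. The groups did not overlap, and the difference was -0.53 ± 0.14 (SE, n = 4 each; adjusted p = 0.0373). Its 4 other probes differed by -0.05 to -0.31 and did not pass, and the call held in 1 of the 8 fits that leave out 1 array. Nrp1, a co-receptor gene for VEGF, was called higher at 0.63 ± 0.18 (SE; adjusted p = 0.0415), and its call also held in 1 of 8. The Nrp1 groups overlapped, with control replicate 4 at 4.46 and oxaliplatin replicate 3 at 4.44. The other Nrp1 probes differed by 0.96 (adjusted p = 0.0251) and -0.05. The receptor gene Flt1, the co-receptor gene Nrp2 and Vegfc, a ligand gene for FLT4, differed by -0.09, 0.01 and 0.11 and did not pass, nor did their other probes (0.18 and 0.03 for Flt1, 0.03 for Nrp2 and 0.03 for Vegfc).

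Angpt2, whose product antagonises or activates TEK depending on the setting, had the widest spread of the 10 genes in oxaliplatin livers. It read 0.38, 0.34, -0.22 and 1.41 there, against 0.40, 0.22, 0.68 and 0.89 in control livers. Oxaliplatin replicate 4 was the highest and replicate 3 the lowest of all 8, with the controls between them. The difference was -0.07 ± 0.32 (SE, n = 4 each; adjusted p = 0.904, 95% interval -0.81 to 0.67). A custom Angpt2 probe was above background on no array and was not tested.

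Of 7 tested angiopoietin and Tie receptor genes, 0 were called in either direction by limma, 2 had an unadjusted p under 0.05, and the median difference was 0.24. Of all 13896 genes tested, 18.6% were called and 5006 had an unadjusted p under 0.05. Angpt1, the activating ligand of TEK, differed by 0.63 ± 0.37 (SE; adjusted p = 0.258). Its probe was dim, with means of -0.46 in oxaliplatin and -1.08 in control livers, and above background on 3 arrays of each group. The receptor genes Tek and Tie1 differed by 0.25 ± 0.22 (SE; adjusted p = 0.435) and 0.24 ± 0.20 (SE; adjusted p = 0.425), and by 0.29 and 0.12 on their second probes.

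**Figure D3:**
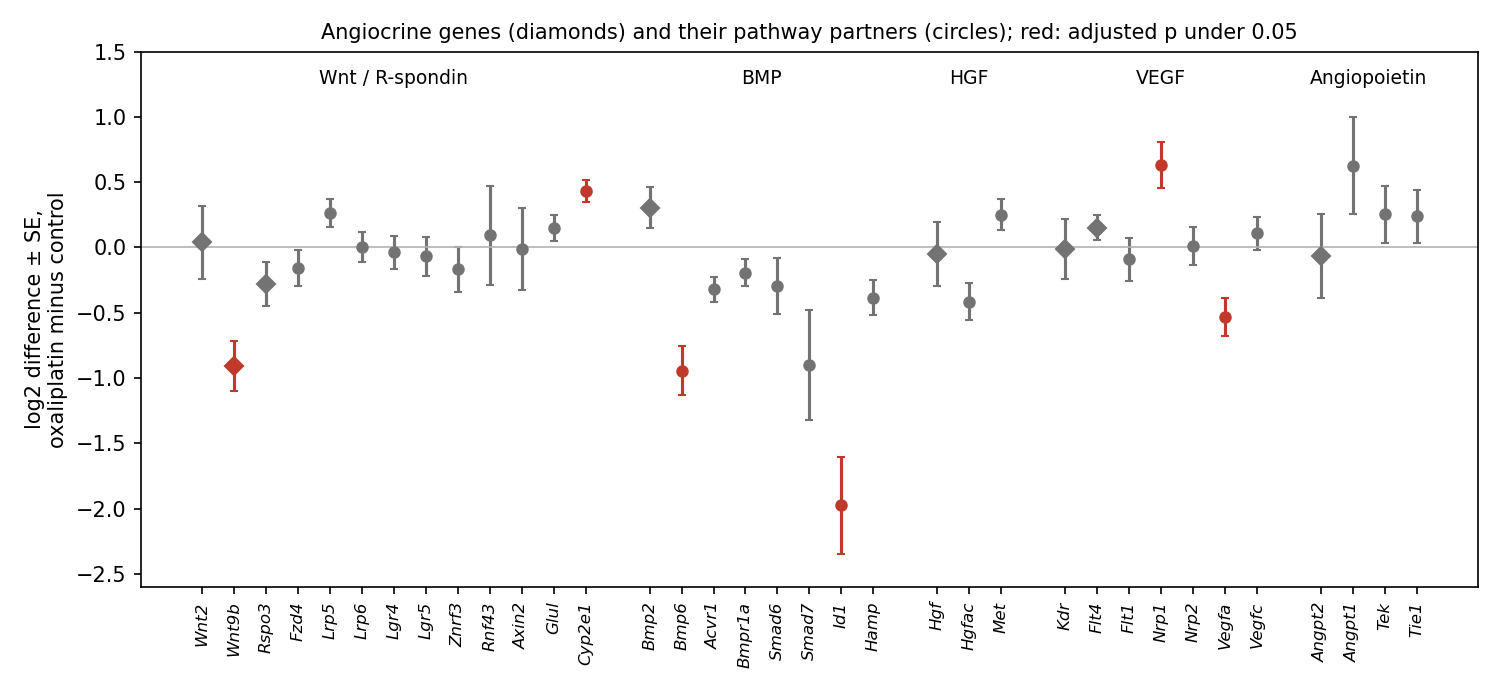
Differences of the 8 angiocrine ligand and receptor genes (diamonds) and of the partners fixed as their textbook counterparts (circles), grouped by pathway (vertical axis: log2 difference, oxaliplatin minus control; whiskers: SE; red: adjusted p under 0.05, grey: not passed). In red are Wnt9b and Vegfa, Bmp6 and Id1 below 0, and Cyp2e1 and Nrp1 above it, with Id1 the lowest at -1.97.

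Maf was the gene of the 10 that was called higher. On its brightest probe it read 3.71, 4.09, 3.78 and 3.83 in oxaliplatin livers, against 3.46, 3.40, 3.56 and 3.45 in control livers. Every oxaliplatin liver lay above every control liver, and replicate 2 stood highest. The rise was 0.38 ± 0.11 (SE, n = 4 each; adjusted p = 0.0408, 95% interval 0.14 to 0.63), or 1.30-fold. All 3 Maf probes read higher in oxaliplatin livers, and for all 3 the groups did not overlap, by a gap of less than 0.01 on the custom probe. The custom probe read 3.68, 3.98, 3.72 and 3.66 in oxaliplatin livers, against 3.57, 3.42, 3.66 and 3.55 in control livers (0.21 ± 0.11, SE; adjusted p = 0.219). The second catalogue probe read 0.40, 0.23, 0.28 and 0.24 in oxaliplatin livers, against -0.14, -0.04, -0.22 and 0.12 in control livers (0.36 ± 0.11, SE; adjusted p = 0.0566). The brightest probe is at adjusted p = 0.0497 when all probes are tested singly.

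These 3 probes are shown because they carry different sequences and 1 of them passed the test. Over the 8 arrays the brightest correlated with the custom probe at Pearson r = 0.932 and with the second catalogue probe at 0.628.
Maf brightest catalogue probe, first 30 bases: tgggtatgtgtagttcttgctataccatgg
Maf custom probe, first 30 bases: cagttttaaagtgatgcagattttttacag
Maf second catalogue probe, first 30 bases: acaagggccaaagatctgagcagcatactt
The catalogue probes lie at chr8:118227736-118227795 and chr8:118229204-118229263 (mm9, minus strand), from bases 2999 and 1531 of the transcript.

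The Maf call rests near the threshold. It was lost when any 1 array other than oxaliplatin replicate 1 was left out, and over the 8 such fits the difference was 0.30 to 0.43 and the adjusted p at most 0.0908. Without oxaliplatin replicate 2, the highest liver, the difference was 0.30. With normexp background correction it was 0.17 (adjusted p = 0.17), and on the 6 arrays of 1 run name it was 0.33 (adjusted p = 0.137). It stayed above 0 in all 21 alternatives tried.

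Maf is also expressed by macrophages, and Kupffer cell markers were set beside it. Of 13 tested markers, 2 were higher, Csf1r (1.47 ± 0.23, SE; adjusted p = 0.00738) and Folr2 (0.91 ± 0.22, SE; adjusted p = 0.0258), 1 was lower, Marco (-2.26 ± 0.63, SE; adjusted p = 0.0406), and 10 did not pass. The median difference of the 13 was 0.36, and the called share of all genes tested was 18.6%. The calls held in 8 of 8 (Csf1r), 5 of 8 (Folr2) and 1 of 8 (Marco) fits that leave out 1 array. Their mean level ran from 5.18 to 5.98 in oxaliplatin livers and from 5.09 to 5.67 in control livers, and oxaliplatin replicate 2 was the highest. Their part in the Maf result was not tested. The genes whose levels followed Maf most closely over the 8 arrays were Mrc1 (Pearson r = 0.985), Chst2 (0.983) and Nckap5l (0.982). For Wnt9b they were Dpagt1 (0.993), Coa8 (0.981) and Ubl7 (0.976). These values describe likeness alone, since the 8 arrays share the group difference by which both members were called, and 61 genes for Maf and 249 for Wnt9b exceeded 0.9.

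Gata4, a regulator of sinusoidal identity, read 2.88, 3.29, 3.34 and 3.28 in oxaliplatin livers, against 3.17, 3.67, 3.56 and 2.91 in control livers. Replicate 1 was the lowest oxaliplatin liver, and the other 3 lay within the control range. The difference was -0.13 ± 0.19 (SE, n = 4 each; adjusted p = 0.661, 95% interval -0.56 to 0.30). Its second probe read -1.73, -2.25, -1.01 and -1.29 in oxaliplatin livers, against -1.20, -0.96, -0.79 and -0.98 in control livers, a difference of -0.59 ± 0.25 (SE; adjusted p = 0.131), and was above background on 1 oxaliplatin and 4 control arrays. Another probe was above background on 0 of 8 arrays and was not tested.

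Within each group the lowest livers were often the same for different genes of the 10. How often each liver was lowest over all genes tested was not counted. Control replicate 4 was the lowest control liver for 7 of the 10 (Wnt2, Rspo3, Bmp2, Hgf, Kdr, Flt4 and Gata4), and oxaliplatin replicate 1 was the lowest oxaliplatin liver for 6 (Wnt2, Rspo3, Kdr, Flt4, Gata4 and Maf). The same 2 livers had the lowest mean of 20 general endothelial markers such as Pecam1 and Cdh5. That mean ran from 3.33 to 3.73 in oxaliplatin livers and from 3.40 to 3.80 in control livers (difference 0.002, two-sided exact permutation p = 0.914, n = 4 each). All 20 markers were tested, of which 1 was higher (Clec14a, 1.14), 2 were lower (Mmrn2, -0.83, and Esam, -0.69) and 17 did not pass. Over all genes tested, 6.99% were called higher and 11.6% lower. Pecam1 differed by -0.36 without passing (adjusted p = 0.061). An equal mean therefore does not show that each marker was unchanged. Control replicate 4 was not low in endothelial markers alone. Its mean was 2.99 for stellate cell and fibroblast markers (3.61 to 3.92 in the other controls) and 4.40 for pericentral genes (5.30 to 5.48). It was not the lowest control for sinusoidal endothelial markers (4.44, control range 4.29 to 4.62) or Kupffer cell markers (5.48, control range 5.09 to 5.67).

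After each array was centred on these markers, the SD over oxaliplatin livers was smaller for 6 of the 10 genes, and the SD over control livers for 8. For Kdr the SD became 0.04 in oxaliplatin livers and 0.35 in control livers, where without this centring it was 0.19 in oxaliplatin livers and 0.47 in control livers. For Wnt9b the SD grew from 0.18 to 0.36 in oxaliplatin livers and shrank from 0.38 to 0.25 in control livers. For Maf it shrank from 0.16 to 0.15 in oxaliplatin livers and grew from 0.07 to 0.14 in control livers. The marker mean differed by only 0.002 between the groups, so this centring could hardly move any group difference. After it, the difference was -0.91 for Wnt9b, which was still called, and 0.38 for Maf, which was no longer called (adjusted p = 0.0881). The part of endothelial cell content in these differences was not tested.

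**Figure D4:**
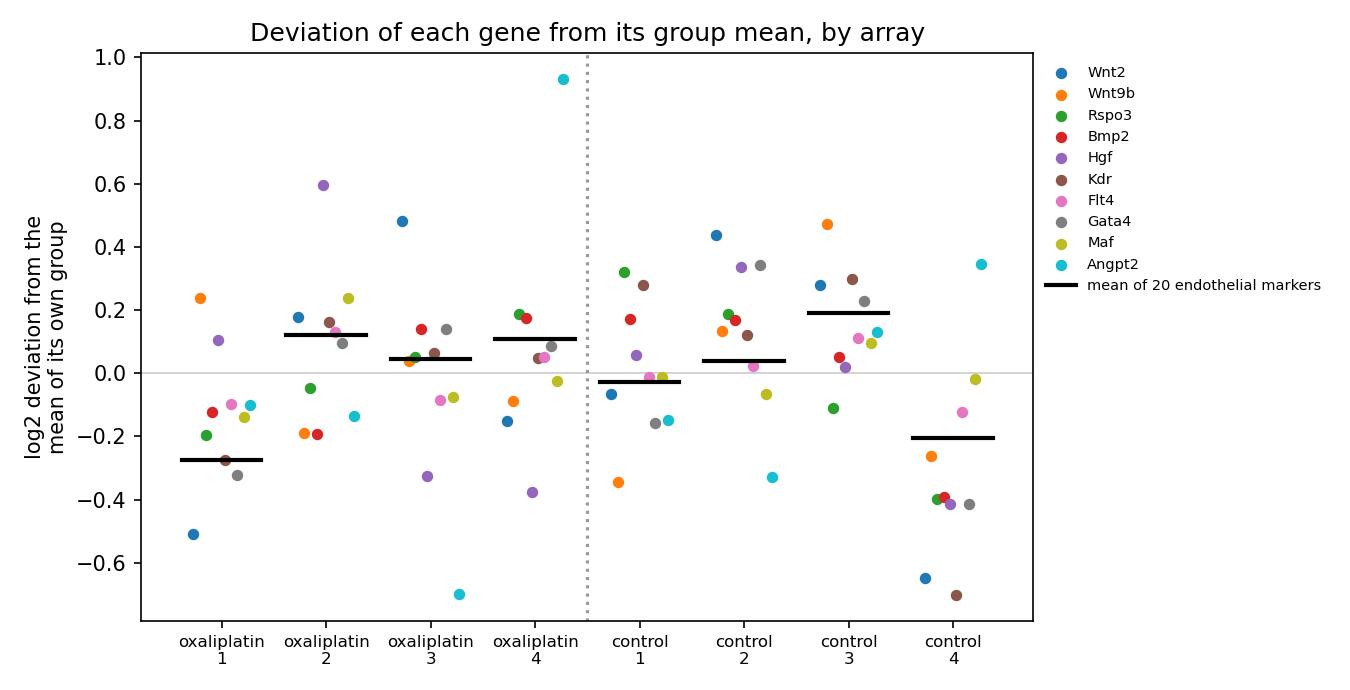
Deviation of each of the 10 genes from the mean of its own group, by array, with the 4 oxaliplatin livers on the left and the 4 control livers on the right of the dotted line (vertical axis: log2 units). Black bars are the same deviation for the mean of 20 general endothelial markers. Most genes and the black bar lie below 0 on oxaliplatin replicate 1 and control replicate 4.

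Other cell types were followed by their markers, whose counts stand beside 6.99% called higher and 11.6% called lower over all genes tested. Of 13 tested sinusoidal endothelial markers, 1 was higher (F8, coagulation factor VIII, 0.81 ± 0.14, SE; adjusted p = 0.0109), 1 was lower (Lyve1, a hyaluronan receptor gene, -1.49 ± 0.26, SE; adjusted p = 0.00991) and 11 did not pass. Of 14 markers of continuous endothelium 2 were higher and 3 lower, and of 20 stellate cell and fibroblast markers 0 were higher and 2 lower. Among 7 cholangiocyte markers 0 were called by limma, with 1 at an unadjusted p under 0.05. Of 12 hepatocyte markers 4 were higher (Ttr 1.29, Trf 0.57, Alb 0.56 and Serpina1a 0.38) and 0 lower, with a median difference of 0.07. Among those that did not pass, Tat differed by -0.57 and Asgr1 by -0.31. Second probes of Ttr (1.23) and Alb (0.51) were called, and that of Trf (0.03) was not. Hepatocyte marker means did not overlap, at 9.79 to 9.93 in oxaliplatin livers and 9.59 to 9.71 in control livers, and their part in the member results was not tested.

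Beyond the 10, a list of 25 other signals of liver endothelium held 2 genes that were higher, 4 that were lower and 19 that did not pass (median difference 0.09). Over all genes tested, 6.99% were called higher and 11.6% lower. Klf2, a flow-responsive transcription factor gene, read 6.08, 5.81, 5.85 and 5.64 in oxaliplatin livers, against 4.67, 4.44, 4.49 and 4.15 in control livers. Every oxaliplatin liver lay above every control liver, and the rise of 1.41 ± 0.14 (SE, n = 4 each; adjusted p = 0.00226) held in all 8 fits that leave out 1 array, but its 2 other probes differed by 0.26 and 0.24 and did not pass. Bmper, the gene of a secreted BMP regulator, was called lower at -3.20 ± 0.74 (SE; adjusted p = 0.0239), with 2.12, 1.47, -0.92 and -0.05 in oxaliplatin livers and 3.53, 3.03, 3.47 and 5.39 in control livers. Both its other probes were called, at -2.49 and -3.30, and the call held in 5 of the 8 fits that leave out 1 array. Apln, the apelin gene, was called higher at 0.72 ± 0.16 (SE; adjusted p = 0.0208), and Ephb4, a receptor gene of venous endothelium, lower at -0.46 ± 0.11 (SE; adjusted p = 0.0241). Each of these calls held in 5 of the 8 fits that leave out 1 array, and with normexp Apln differed by 0.23 (adjusted p = 0.181). The Apln probe was dim, with means of 0.13 in oxaliplatin and -0.59 in control livers. It was above background on 3 of 4 oxaliplatin and 4 of 4 control arrays. The other Ephb4 probe, at -0.42, did not pass (adjusted p = 0.0733).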

How the data were processed

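Per the file headers, the arrays were read with Agilent Feature Extraction 12.0.3.1 on build mm9, while version 10.7 and limma appear in the submitters' processing notes. The deposited processed signal is a background-subtracted fluorescence intensity on a linear scale, not normalized between arrays per the file headers. An alternative used the log2 values of 46867 probes that the authors deposited as a series matrix. Its normalization, scale factor and centring between arrays are not given in the sources used here, and its column medians were 5.78 to 5.83 on the oxaliplatin arrays and 5.76 to 5.82 on the control arrays. The number of arrays limits the precision.

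Processed intensities were log2-transformed, and the 75th percentile of the non-control probes was subtracted array by array. Outlier-marked spots were then left out. Probes well above background on at least 4 of 8 arrays were tested (54636). RefSeq accessions were named from the reference gene table (GRCm38.p6, names alone): 47985 of 48257 matched, and 121 probes kept the name in the file. A gene is its brightest probe over all 8 arrays. The group difference was fitted by limma 3.58.1 (lmFit, eBayes) under R 4.3.3. Single values per array had two-sided exact permutation tests, whose smallest p is 0.0286. The fit was tested on simulated data. Sequences are those the files give for each probe. Files were read with Python 3.11.15, pandas 2.3.3 and numpy 2.4.6, and figures drawn with matplotlib 3.10.9.

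The members and gene lists were chosen with earlier results of these data known. Named genes are all members, up to 4 called genes a list with the smallest adjusted p, a fixed set of textbook partners, and for each called member the 3 genes most like it; where other probes of a named gene are given, all its tested probes are meant. Alternatives covered background correction, scaling, source of values, filter, variance model, choice of probe, each array left out, run name and replicate block. Fcn3, of the sinusoidal list, was not found by name. P-values measure the spread among 4 mice a group.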

Additional observations from a re-analysis of the deposited data

Results flagged for a closer look

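A group of 4 arrays was marked where its highest or lowest value stood apart from the other 3 by a gap of more than 0.829 of the group's range (Dixon's critical value for 4). Of 40 sets of 4 values over the 20 tested probes, 2 were marked, and chance marks about 1 in 20. Gata4 was at 2.88 on its brightest probe in oxaliplatin replicate 1, below 3.28 to 3.34 in the other oxaliplatin livers. Bmp2 was at 1.35 on its catalogue probe in control replicate 4, below 1.85 to 1.92 in the other control livers. These are the 2 livers with the lowest mean of general endothelial markers in their groups, and control replicate 4 was also the lowest control for stellate cell markers and pericentral genes.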

How the results depend on the processing

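Each result was recomputed under 21 alternatives at gene level and 20 at probe level. No called difference of a member changed sign in any of them. The count of called members, 2 at gene level, was 1 with normexp, with arrays centred on general endothelial markers, with no filter on dim probes and with the filter requiring all 8 arrays, under which Wnt9b was not tested. It was 0 on the 6 arrays of 1 run name and with the run name as a term (limma; 2 and 3 members had an unadjusted p under 0.05), and 0 to 2 with 1 array left out. At probe level, where 2 were called, it was 3 with the percentile over detected probes, median centring and quantile normalization, where the second Maf catalogue probe was also called. It was 3 with no filter, 2 of them probes above background on no oxaliplatin array. It was 1 after endothelial centring, 0 with either run setting (2 probes at an unadjusted p under 0.05 in each), and 1 to 2 with 1 array left out. Over all genes 2586 were called, against 1226 after endothelial centring, 4099 with no filter, 516 on 1 run name, 919 with the run name as a term, and 1015 to 2331 with 1 array left out (1702, 1377, 1015 and 1313 without oxaliplatin replicates 1 to 4, 1164 without control replicate 3). The cause of these changes was not tested, apart from the fewer arrays or features that some settings use.

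The share of all calls that were higher was 37.6% in the reported fit, 21.3% with normexp, 60.5% with the percentile over detected probes, 47.8% with median centring, 50.1% with quantile normalization, 50.7% after endothelial centring, 49.4% with the series matrix and 67.6% with no filter. The percentile over detected probes moved the median of all genes to 0.02, against -0.09.

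Equal replicate numbers gave correlations of deviations from group means of -0.32, -0.08, -0.09 and -0.23, so the numbers were not taken as pairs. With the replicate number as a replicate block, 529 genes, 0 members and 0 member probes were called (limma; 2 members and 4 probes at an unadjusted p under 0.05), and Wnt9b and Maf were at -0.91 and 0.38 with adjusted p of 0.0663 and 0.115.

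Differences that were not called changed sign as follows. With normexp Wnt2 was at -0.17, Flt4 at -0.00020, Lrp6 at -0.086, Rnf43 at -0.014, Nrp2 at -0.088, Glul at -0.15 and the Rspo3 catalogue probe at -0.0038. With the percentile over detected probes Hgf was at 0.061, Kdr at 0.096 (0.11 on its catalogue probe), Angpt2 at 0.043, the Flt4 catalogue probe at 0.075, Lgr4 at 0.072, Lgr5 at 0.041, Flt1 at 0.017 and Axin2 at 0.096. Median centring put Hgf at 0.0032, Kdr at 0.038 and 0.049, the Flt4 catalogue probe at 0.017, Lgr4 at 0.014 and Axin2 at 0.038. Quantile normalization put Kdr at 0.093 and 0.11, the Wnt2 custom probe at -0.038, the Rspo3 catalogue probe at -0.077, Lgr4 at 0.074, Lgr5 at 0.0022, Flt1 at 0.018 and Axin2 at 0.054. In the series matrix Kdr was at 0.094 and 0.11, the Wnt2 custom probe at -0.045, the Rspo3 catalogue probe at -0.075, Lgr4 at 0.075, Lgr5 at 0.0016, Flt1 at 0.019 and Axin2 at 0.053.

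The mean of a gene's probes gave Fzd4 0.22, Lgr4 0.16, Bmpr1a 0.14, Flt1 0.039 and Axin2 0.52. Both run settings gave Kdr 0.042 and 0.056, Angpt2 0.050, the Rspo3 catalogue probe -0.27, the second Hgf catalogue probe -0.22, Lgr4 0.11, Flt1 0.11, Nrp2 -0.094 and Axin2 0.12. With 1 array left out, Wnt2 ran from -0.18 to 0.21 (its custom probe from -0.059 to 0.24), the Rspo3 catalogue probe from -0.17 to 0.59, Hgf from -0.25 to 0.076, Kdr from -0.25 to 0.085 (its catalogue probe from -0.21 to 0.096), the Flt4 catalogue probe from -0.14 to 0.023 and Angpt2 from -0.38 to 0.17. Among partners, Lrp6 ran from -0.055 to 0.059, Lgr4 from -0.10 to 0.076, Rnf43 from -0.21 to 0.35, Flt1 from -0.17 to 0.029, Nrp2 from -0.091 to 0.10 and Axin2 from -0.32 to 0.21.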
